A study of Mus musculus with 45 samples.

Results

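The genes described are 10 of the 54532 genes counted in neural tube organoids: the simple keratins Krt8, Krt18, Krt19 and Krt7, the desmosome and membrane genes Dsp, Pkp2 and Perp, and the transcription factor genes Grhl2, Grhl3 and Ovol1. They were chosen on the RA effect in these same libraries at the later time points, so that the difference between RA-treated and untreated organoids at 42, 54, 66 and 78 h is given as a description, without a test. Tests are given for the first 30 h of RA treatment, for changes from day 2 to 18 h, and for genes outside the 10. Earlier results of these data were known when the genes were chosen, so these tests may not be independent of that choice. The untreated libraries at 78 h took part in that choice, so their change from day 2 is also given without a test. Only the 4 keratins were higher with RA at each of the last 4 time points and progressively so, at 78 h by 9.76- to 31.0-fold. Dsp was also higher at these times. Its highest mean was at 30 h, where RA-treated replicates 1 and 3 were low in Y-chromosome genes. Pkp2 and Perp stayed within 1.56-fold of the untreated level at 78 h. Grhl2 was lower with RA at every time point. Grhl3 rose early and was again higher with RA at 78 h, and Ovol1 stayed under 4 CPM. At 78 h, 7 of the 10 were higher with RA without overlap and 1 lower, beside 27.9% and 27.4% of all genes tested. These counts describe the contrast that chose the genes. A difference at all of the last 4 time points that kept growing was seen in the keratins only.

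The organoids were grown in Matrigel and N2B27 medium from wild-type R1 cells, an embryonic stem cell line of the mouse, each organoid arising by clonal growth. RNAseq libraries were made at day 2, before treatment, and then after a further 8 h, 18 h, 30 h, 42 h, 54 h, 66 h or 78 h, from organoids kept without RA (untreated) or given 250 nM all-trans RA (RA-treated). Each of the 15 conditions had 3 biological replicates, which gave 45 libraries. The protocol in the sample labels instead gives 250 µM, and has 0, 68 and 80 h where the titles have day 2, 66 h and 78 h, and no 8 h. The design text and the titles are followed here. As described, all groups share the cell line, genotype and medium, and a single line was used. A difference between libraries in Y-chromosome genes is given below.

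Keratins are the intermediate filament proteins of epithelia. Filaments form from pairs of a type I and a type II keratin, and single-layered epithelia use the type II proteins KRT8 and KRT7 with the type I proteins KRT18 and KRT19. KRT8 and KRT18 are also the first keratins of the mouse embryo, found in its early outer epithelium, whereas neuroepithelial cells mainly use vimentin and nestin. Desmosomes anchor these filaments at cell contacts: desmoplakin (Dsp) binds the filaments, plakophilin 2 (Pkp2) links desmoplakin to the desmosomal cadherins, and Perp is a membrane protein needed for desmosomes in stratified epithelia. Grainyhead-like factors (Grhl2, Grhl3) activate genes of epithelial junctions and are required for neural tube closure, and Ovol1 is a zinc finger repressor active in differentiating epithelia.

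Levels are library-scaled counts (CPM) after TMM normalization over all 45 libraries, which had between 17298632 and 39688686 counts, so that 3 counts correspond to 0.076 to 0.173 CPM. The 10 genes had at least 6 counts in every library, and all 10 passed the filter on low counts in each comparison. In 6 libraries the mean of 4 Y-chromosome genes was 1.24 to 3.43 CPM, against 22.7 to 89.7 CPM in the other 39 libraries. These were the 3 untreated libraries at 30 h, RA-treated replicates 1 and 3 at 30 h and RA-treated replicate 3 at 8 h. At 8 h and 30 h the 10 genes are therefore given with and without the RA-treated library that differed from its group. The 8 neuroepithelium markers examined, among them Sox2, Pax6 and Nes, were all detected at 78 h and together amounted to 1014 to 1192 CPM in untreated and 1177 to 1364 CPM in RA-treated libraries. As these are bulk libraries, a lower level from fewer cells of a type cannot be told apart from less RNA per cell.

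Of the 4 keratin genes, 3 lie together on chromosome 15 of the GRCm38 genome. Krt8 (chr15:101996698-102004482, minus strand) and Krt18 (chr15:102028180-102032027, plus strand) are neighbours whose starts are 23.7 kb apart, and Krt7 (chr15:101411043-101430313) starts 593.4 kb from Krt8. Krt19 is on chromosome 11 (chr11:100140810-100148665). Between Krt7 and Krt18 lie 23 other keratin genes, 19 of which were at or under 1 CPM in every library, and the highest value of any was 1.68 CPM (Krt79). The high levels on this chromosome were thus those of Krt7, Krt8 and Krt18 and were not shared by the keratins between them.

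The sequences upstream of Krt8, Krt18 and Dsp are shown because Krt8 and Krt18 varied together in these data and Dsp had the largest rise of the 10 genes at 18 h and 30 h. They were taken from the 250 bases before the RefSeq start (GRCm38.p6), without bases that GENCODE places in an exon of the gene, and are written 5′ to 3′ on the gene's strand. Capitals mark AGGTCA, the core letters bound by retinoic acid receptors, and GGGCGG, the Sp1 box, each on either strand.
Krt8 (chr15:102004483-102004592): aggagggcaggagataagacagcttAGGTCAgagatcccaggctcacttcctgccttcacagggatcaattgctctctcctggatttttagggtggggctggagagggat
Krt18 (chr15:102027966-102028179): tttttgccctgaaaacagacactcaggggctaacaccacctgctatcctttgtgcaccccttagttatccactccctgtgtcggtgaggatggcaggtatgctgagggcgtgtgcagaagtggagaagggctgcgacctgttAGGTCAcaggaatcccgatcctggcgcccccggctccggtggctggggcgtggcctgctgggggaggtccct
Dsp (chr13:38151044-38151293): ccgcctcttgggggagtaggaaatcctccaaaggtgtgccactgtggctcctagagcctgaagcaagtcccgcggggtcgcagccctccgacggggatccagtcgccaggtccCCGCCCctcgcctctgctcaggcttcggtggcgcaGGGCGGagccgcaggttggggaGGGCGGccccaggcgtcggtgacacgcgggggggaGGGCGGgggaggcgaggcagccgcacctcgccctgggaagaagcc
AGGTCA was present once upstream of Krt8, at -225 from the RefSeq start, and once upstream of Krt18, at -108, and was found in 13.8% of 27025 promoters of this length. GGGCGG occurred 4 times upstream of Dsp and once upstream of Grhl3, and 32.9% of promoters hold it. Neither strand of these 4 promoters held the TATA box TATAAA (13.0% of all promoters), the AP-1 site TGANTCA (6.9%), a second receptor core AGTTCA (11.9%) or the Grainyhead-like core AACCNGTT (1.7%). A match is a description of these letters only. The RefSeq start of Krt7 lies inside the gene as GENCODE places it, and its window, most of which is annotated exon, was not used. The promoters of Krt19, Pkp2, Perp, Grhl2 and Ovol1 were not analysed here.

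Krt8 lay between 10.2 and 12.2 CPM in the 3 day 2 libraries and between 9.78 and 21.3 CPM in the 21 untreated libraries. In RA-treated organoids it was 21.2, 23.0 and 21.8 CPM at 18 h, 66.8, 65.9 and 58.0 CPM at 42 h, 111, 104 and 102 CPM at 54 h, 130, 174 and 167 CPM at 66 h, and 223, 213 and 222 CPM at 78 h. From 54 h onwards each RA-treated group lay wholly above the RA-treated group before it, and from 42 h onwards no RA-treated library overlapped an untreated one. At 78 h the mean was 219 ± 5.70 CPM with RA and 18.1 ± 1.46 CPM without (SD, n = 3 each), 12.1-fold higher, or 3.62 ± 0.07 on the log2 scale (standard error).

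Krt18, the filament partner of Krt8, was 60.6, 58.6 and 50.3 CPM at 42 h with RA, 123, 103 and 106 CPM at 54 h, 119, 165 and 155 CPM at 66 h, and 207, 201 and 212 CPM at 78 h. Its RA-treated groups at 54 h and 66 h overlapped and did not differ beyond their spread, whereas the groups at 42 h and 78 h stood apart from both. Untreated libraries stayed between 13.2 and 24.5 CPM at all times. At 78 h Krt18 was 207 ± 5.96 CPM with RA and 21.2 ± 2.91 CPM without (SD, n = 3 each), 9.76-fold higher.

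Krt19, a type I keratin of simple ducts and linings, was lower in level but had a larger difference. With RA it was 19.5, 24.8 and 20.8 CPM at 42 h, 43.3, 38.1 and 43.7 CPM at 54 h, 49.9, 76.7 and 70.9 CPM at 66 h, and 109, 108 and 101 CPM at 78 h, while untreated libraries lay between 2.29 and 8.65 CPM. Each of these RA-treated groups was above the one before it. The means at 78 h were 106 ± 4.05 CPM with RA and 7.71 ± 0.676 CPM without (SD, n = 3 each), 13.7-fold higher, or 3.79 ± 0.07 on the log2 scale (standard error).

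Krt7, a type II keratin of simple and glandular epithelia, had the largest ratio of the 4. In the 3 RA-treated libraries it was 19.0, 17.0 and 20.4 CPM at 42 h, 49.7, 37.7 and 39.2 CPM at 54 h, 47.5, 65.2 and 61.1 CPM at 66 h, and 81.5, 83.8 and 92.1 CPM at 78 h. The groups at 54 h and 66 h overlapped, and all untreated libraries lay between 1.70 and 4.24 CPM. The mean of 85.8 ± 5.56 CPM with RA at 78 h was 31.0-fold the untreated mean of 2.77 ± 0.942 CPM (SD, n = 3 each).

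**Figure D1:**
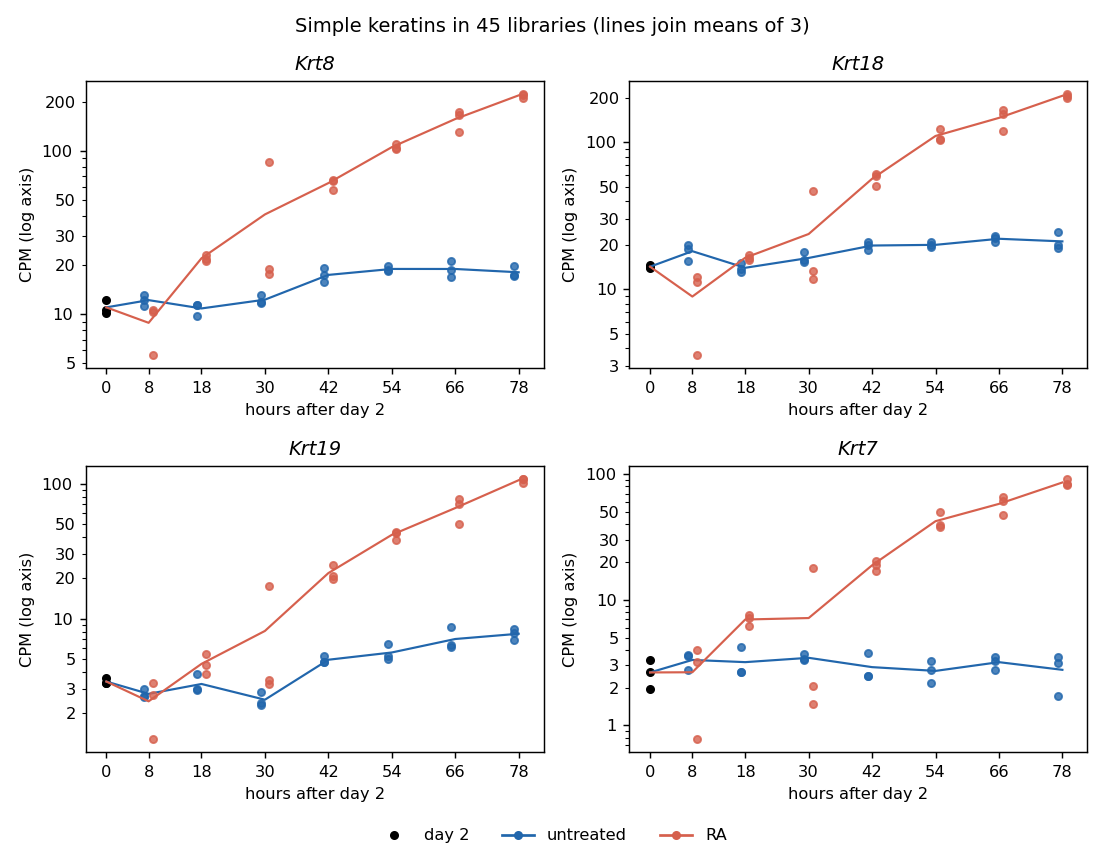
Levels of Krt8, Krt18, Krt19 and Krt7 in CPM on a log axis against hours after day 2. Points are single libraries, 3 per condition, black for day 2, blue for untreated and red for RA-treated, and lines join the means. From 42 h the RA-treated points lie above all untreated points, and at 30 h 1 RA-treated library stands above the other two in each panel.

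Krt8 and Krt7 were called higher at 18 h, before the late time points on which the genes were chosen. Earlier results of these data were known at that choice, so the test may not be independent of it. Krt8 rose from 10.9 ± 0.931 to 22.0 ± 0.929 CPM (SD, n = 3 each), or by 1.03 ± 0.08 on the log2 scale (standard error), with an adjusted p of 2.93e-07 in edgeR's quasi-likelihood test after Benjamini-Hochberg adjustment. Krt7 rose from 4.24, 2.68 and 2.64 CPM to 6.21, 7.50 and 7.18 CPM, a log2 fold change of 1.17 (adjusted p = 0.000105). Krt18 was 16.3, 17.2 and 15.7 CPM with RA against 15.1, 13.2 and 13.8 CPM without, also higher without overlap, but was not called (log2 fold change 0.24, adjusted p = 0.0192). Krt19 was not called either (log2 fold change 0.49, adjusted p = 0.026), and its groups overlapped. The differences between the keratins in their change at 18 h were not tested. A call required an adjusted p below 0.01 together with a log2 fold change beyond 1 in either direction. Krt8 lay close to this fold limit and was no longer called without untreated replicate 2 or without RA-treated replicate 2, where its log2 fold change was as low as 0.96. Krt7 was not called in 1 fit of all 45 libraries (adjusted p = 0.0577).

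At 8 h no keratin was called. Krt18 was 11.2, 12.1 and 3.59 CPM with RA against 15.6, 20.2 and 18.8 CPM without, with no overlap, and its log2 fold change of -1.01 had an adjusted p of 0.128. Krt8 was 10.6, 10.4 and 5.64 CPM against 11.2, 12.2 and 13.1 CPM, also without overlap (log2 fold change -0.45, adjusted p = 0.238). The lowest value in both genes was that of replicate 3, the RA-treated library low in Y-chromosome genes. Without it the log2 fold changes were -0.66 for Krt18 (adjusted p = 0.000344, under the fold limit) and -0.23 for Krt8 (adjusted p = 0.113). The groups of Krt19 and Krt7 overlapped at 8 h, and leaving out replicate 3 turned their log2 fold changes from -0.17 to 0.12 and from -0.31 to 0.10.

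At 30 h the keratins were high in 1 of the 3 RA-treated libraries. Krt8 was 86.1 CPM in replicate 2 and 18.9 and 17.6 CPM in replicates 1 and 3, Krt18 was 46.4 against 13.3 and 11.7 CPM, Krt19 was 17.5 against 3.49 and 3.28 CPM, and Krt7 was 17.9 against 2.06 and 1.47 CPM. Replicate 2 is the RA-treated library at 30 h that was not low in Y-chromosome genes, and its values lay between those of the RA-treated groups at 18 h and 42 h for Krt18 and Krt19, within the 42 h group for Krt7 and above both groups for Krt8. With all 6 libraries none of the 4 was called (adjusted p from 0.0702 for Krt8 to 0.457 for Krt18), while 1 fit of all 45 libraries called Krt8 and Krt19 higher. Without replicate 2 the log2 fold changes were 0.54 for Krt8, 0.42 for Krt19, -0.41 for Krt18 and -0.99 for Krt7, so that the direction of Krt18 and Krt7 at 30 h depended on this library. By the library numbers in the titles, RA-treated replicates 2 and 3 also carry later numbers than the rest of the libraries at that time, and replicate 1 alone gave 0.61 for Krt8, 0.48 for Krt19, -0.30 for Krt18 and -0.75 for Krt7, without a test. The part of the Y-chromosome difference and of the library numbers in these values was not tested.

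Without RA the keratins differed less from day 2. Krt19 was 3.32, 3.60 and 3.32 CPM at day 2 and 6.98, 7.85 and 8.31 CPM at 78 h, a log2 fold change of 1.18. Krt8 and Krt18 were higher at 78 h than at day 2 in all 3 libraries, by 0.72 and 0.57 on the log2 scale. The Krt7 groups overlapped, with a log2 fold change of 0.06. Summed over the 4 genes, keratin counts were 31.3 ± 1.5 CPM at day 2, 49.8 ± 5.10 CPM in untreated and 618 ± 11.8 CPM in RA-treated organoids at 78 h (SD, n = 3 each).

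Levels of different genes were compared per kilobase of the longest protein-coding transcript. This was 4094 bases for Krt7 and 1437 to 1958 bases for Krt8, Krt18 and Krt19, and the level of Krt7 per kilobase depends on that choice. At day 2 Krt18 was 9.93 ± 0.239 CPM per kb, Krt8 was 5.63 ± 0.532, Krt19 was 2.16 ± 0.102 and Krt7 was 0.645 ± 0.168 CPM per kb (SD, n = 3 each). At 78 h with RA the order was the same, with 144 ± 4.15, 112 ± 2.91, 67.2 ± 2.57 and 21 ± 1.36 CPM per kb. Krt18 exceeded Krt8 at both times, and the ratio of Krt8 to Krt18 per kb was not constant. It was 0.528 to 0.640 in the day 2 libraries, 0.957 to 1.02 at 18 h with RA against 0.544 to 0.604 without, and 0.765 to 0.789 at 78 h with RA against 0.591 to 0.654 without. The RA-treated ratios lay above the untreated ones at both times without overlap, and at 18 h RA-treated organoids held about equal levels of the pair. Over the 15 condition means, which come from the same libraries, Pearson's r on log2(CPM + 1) was 0.956 to 0.984 for the 6 pairs of these keratins, as a description.

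Dsp, which encodes the protein that ties keratin filaments to desmosomes, had its highest RA-treated mean at 30 h and lower means from 42 h onwards. It was 30.9, 27.9 and 33.3 CPM in untreated and 140, 159 and 152 CPM in RA-treated libraries at 18 h, and 22.5, 24.7 and 20.8 CPM against 282, 181 and 252 CPM at 30 h. The groups were far apart at both times. Dsp rose by 2.29 ± 0.07 on the log2 scale (standard error) at 18 h, with an adjusted p of 2.61e-11, and by 3.39 ± 0.17 at 30 h, with an adjusted p of 3.54e-05. At 30 h replicate 2, which was high in keratins, had the lowest Dsp value of the RA-treated group, and without it the log2 fold change was 3.54. Replicates 1 and 3, at 282 and 252 CPM, were the RA-treated libraries low in Y-chromosome genes. The 181 CPM of replicate 2 lay within the RA-treated group at 42 h, of 156 to 184 CPM. At 8 h Dsp was 80.2, 68.4 and 36.6 CPM with RA against 34.0, 33.9 and 30.6 CPM without, which was not called (log2 fold change 0.91, adjusted p = 0.0578). Without RA-treated replicate 3, the library with 36.6 CPM that was low in Y-chromosome genes, Dsp was called at 8 h with a log2 fold change of 1.17 (adjusted p = 1.47e-08).

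From 42 h onwards Dsp remained higher with RA, at lower levels at 66 h and 78 h than at 42 h. RA-treated libraries had 184, 180 and 156 CPM at 42 h, 114, 114 and 121 CPM at 54 h, 81.6, 102 and 86.1 CPM at 66 h and 100, 103 and 108 CPM at 78 h, against 24.3 to 34.3 CPM in untreated libraries over these times. The groups at 66 h and 78 h overlapped each other and lay below those at 42 h and 54 h. The log2 fold change thus went from 2.44 at 42 h to 1.95 at 78 h while that of the keratins increased. Without RA, Dsp was 31.1 ± 1.24 CPM at day 2 and 27 ± 2.38 CPM at 78 h (SD, n = 3 each), which differ by -0.20 on the log2 scale.

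Pkp2 and Perp, whose products also belong to desmosomes, did not share this response. At 18 h Pkp2 was 64.5, 62.3 and 65.2 CPM without RA and 62.4, 63.2 and 65.1 CPM with RA, and the 95% interval of the log2 fold change was -0.10 to 0.10. At 8 h Pkp2 was 51.5, 51.1 and 44.2 CPM with RA against 63.0, 64.7 and 65.8 CPM without, lower without overlap but not called (log2 fold change -0.39, adjusted p = 0.0201), and -0.34 without RA-treated replicate 3 (adjusted p = 0.00095, under the fold limit). At 30 h it was 39.4, 61.5 and 39.5 CPM with RA against 51.7, 59.2 and 57.6 CPM without. The overlap there came from replicate 2, without which the log2 fold change went from -0.26 (adjusted p = 0.365) to -0.53 (adjusted p = 1.19e-05, under the fold limit). Later the arms separated, with 66.7 ± 4.29 CPM with RA and 42.8 ± 3.75 CPM without at 78 h (SD, n = 3 each), 1.56-fold higher. In the untreated arm Pkp2 was 1.58-fold lower at 78 h than at day 2 (log2 fold change -0.66), so that the RA-treated libraries, at 71.7, 64.2 and 64.2 CPM, were close to the 67.9, 70.2 and 64.5 CPM of day 2. Perp stayed between 22.7 and 44.8 CPM in all 45 libraries. At 18 h its log2 fold change was 0.10 (95% interval -0.02 to 0.22, adjusted p = 0.169). At 8 h it was 0.30 (adjusted p = 0.101) and 0.31 without RA-treated replicate 3 (adjusted p = 0.0159), and at 30 h 0.16 (adjusted p = 0.369) and 0.06 without RA-treated replicate 2 (adjusted p = 0.571). None of these was called, and at 78 h it was 28.4, 25.8 and 24.9 CPM with RA against 28.0, 30.1 and 28.2 CPM without, groups that overlapped.

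Grhl2, an activator of epithelial junction genes, was high at day 2 and lower with RA at every later time point. It was 185, 185 and 169 CPM at day 2. At 18 h it was 118, 103 and 115 CPM without RA and 24.4, 29.4 and 28.2 CPM with RA. The groups did not overlap, and Grhl2 fell by 2.02 on the log2 scale (standard error 0.07, adjusted p = 1.86e-10). It was already lower at 8 h, at 53.2, 49.3 and 31.8 CPM with RA against 137, 144 and 132 CPM without, a log2 fold change of -1.62 (adjusted p = 0.0019), and at 30 h the log2 fold change was -2.65 (adjusted p = 0.0049). Without RA-treated replicate 3 the value at 8 h was -1.44 and without RA-treated replicate 2 that at 30 h was -3.41, both still called. Leaving out any of the 3 untreated libraries lost the call at 8 h (adjusted p up to 0.0197), and leaving out any library other than RA-treated replicate 2 lost it at 30 h (adjusted p up to 0.025).

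The decline of Grhl2 also took place without RA, only later. In untreated libraries it was 18.6, 20.2 and 15.1 CPM at 78 h, 9.99-fold below day 2 (log2 fold change -3.33). With RA it stayed between 4.27 and 13.6 CPM from 42 h to 78 h. The difference between the arms was therefore smaller at 78 h, at 11.5 ± 2.23 against 18.0 ± 2.61 CPM (SD, n = 3 each), than at 42 h, at 9.42 ± 2.07 against 45.4 ± 5.34 CPM. In every RA-treated library from 42 h onwards, the 4 keratins were thus higher and Grhl2 lower than in the untreated libraries of the same time point.

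Grhl3, the Grainyhead-like factor known for its role in the surface ectoderm and in neural tube closure, had an early rise with RA. At 8 h it was 36.5, 32.2 and 41.2 CPM with RA against 17.0, 16.6 and 19.6 CPM without, a rise of 1.06 ± 0.12 on the log2 scale (standard error), with an adjusted p of 0.00257. At 18 h it was 26.5, 34.5 and 31.7 CPM against 16.4, 13.9 and 16.6 CPM, a log2 fold change of 0.99 (adjusted p = 2.61e-06), just inside the fold limit and so not called, though it was called without untreated replicate 1 or 3 or RA-treated replicate 1, at 1.09 or less. The groups were apart at both times. The call at 8 h was kept only without RA-treated replicate 2. Without untreated replicates 1, 2 or 3 or RA-treated replicate 1 the adjusted p rose to at most 0.0274, and without RA-treated replicate 3 the log2 fold change was 0.95. By 30 h the arms overlapped, at 6.82, 13.7 and 6.43 CPM with RA and 9.36, 8.96 and 9.96 CPM without (log2 fold change -0.06, adjusted p = 0.904). The overlap came from RA-treated replicate 2, and without it Grhl3 was lower with RA, by -0.53 on the log2 scale (adjusted p = 0.00218, under the fold limit). At 78 h Grhl3 was 9.85 ± 1.32 CPM with RA and 6.11 ± 0.506 CPM without (SD, n = 3 each), both below the 19.3 ± 0.490 CPM of day 2. In untreated organoids its log2 fold change between day 2 and 78 h was -1.66.

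Ovol1, a repressor with roles in epidermal differentiation, was at the low end of what the depth could measure, with 6 to 93 counts per library. At 8 h it was 1.34, 2.27 and 2.54 CPM with RA and 3.79, 3.33 and 3.08 CPM without, lower without overlap but not called (log2 fold change -0.73, adjusted p = 0.136), and -0.93 without RA-treated replicate 3 (adjusted p = 0.00846, under the fold limit). At 18 h it was 1.35, 1.20 and 1.39 CPM with RA and 2.39, 2.10 and 2.48 CPM without, a log2 fold change of -0.82 (adjusted p = 0.00354) that did not reach the fold limit. At 30 h it was called lower only when RA-treated replicate 2 was left out (log2 fold change -1.43, adjusted p = 0.00751). In untreated organoids it was 2.88 ± 0.602 CPM at day 2 and 0.422 ± 0.258 CPM at 78 h (SD, n = 3 each, log2 fold change -2.81). With RA at 78 h it was 1.19, 0.580 and 0.735 CPM, overlapping the untreated 0.719, 0.268 and 0.279 CPM. Gm31166, which overlaps 690 exonic bases of Ovol1 on the opposite strand, had up to 59 counts, and Gm16136 opposite Grhl2 up to 157. The strand setting of the counting is not given in the sources used here, so that reads of such pairs may have been shared.

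**Figure D2:**
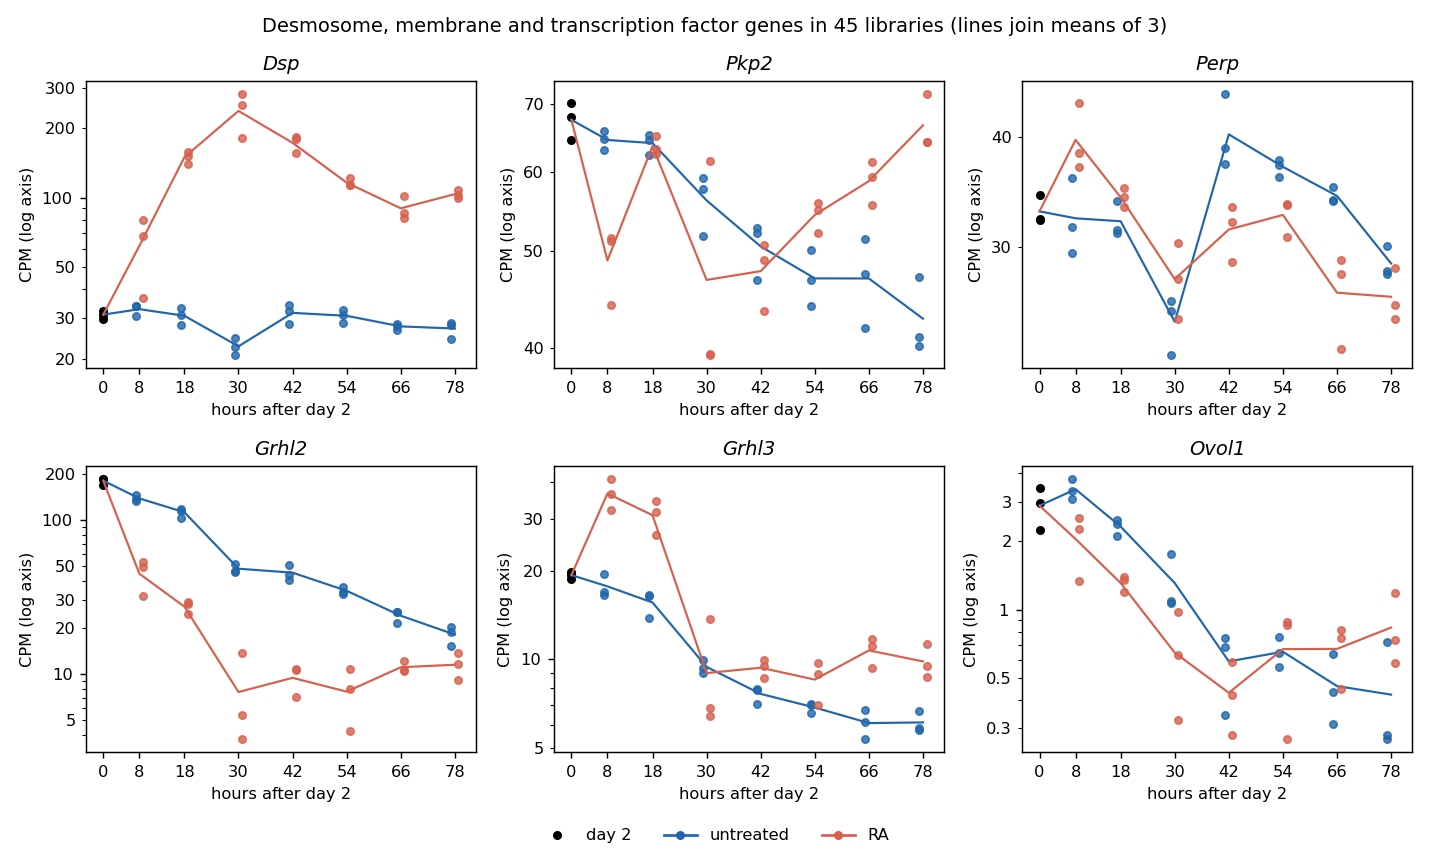
Levels of Dsp, Pkp2, Perp, Grhl2, Grhl3 and Ovol1 in CPM on log axes of different range against hours after day 2. Points are single libraries, 3 per condition, black for day 2, blue for untreated and red for RA-treated, and lines join the means. Dsp has its highest RA-treated mean, 238 CPM, at 30 h, where replicate 2, at 181 CPM, lies within the 42 h group. Grhl2 falls in both arms, Grhl3 is high with RA at 8 h and 18 h, and Pkp2 and Perp span less than a 2-fold range.

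Per kilobase, the order of the genes was different at day 2 and after RA. At day 2 Grhl2 was the highest of the 10 at 36.3 ± 1.90 CPM per kb, followed by Pkp2 at 23.1 ± 0.996 and Perp at 16.9 ± 0.637 CPM per kb (SD, n = 3 each). At 78 h with RA, Grhl2 was 2.32 ± 0.451 CPM per kb and only Ovol1 was lower, while Krt18, Krt8 and Krt19 stood above the rest. Pkp2, at 22.9 ± 1.47 CPM per kb, and Krt7, at 21 ± 1.36, came next and did not differ beyond their spread at the transcript lengths used. Dsp was at 10.8 ± 0.444 CPM per kb.

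Counted together, the 10 genes moved in no common direction before 42 h. At 8 h 1 was called higher and 1 lower (Grhl3 and Grhl2), where 1.26% and 0.537% of the 15836 genes tested were called in these directions. At 18 h 3 were called higher (Krt8, Krt7 and Dsp) and 1 lower (Grhl2), against 8.17% and 2.76% of all genes, and the median log2 fold change of the 10 was 0.36 beside 0.02 over all 16508 genes. At 30 h Dsp was called higher and Grhl2 lower, against 5.98% and 2.48%. Compared with day 2, untreated organoids at 18 h had 0 of the 10 called either way with edgeR, and 0 with DESeq2, against 3.2% and 1.35% of genes. At an unadjusted p under 0.05, 2 of the 10 were lower there (Grhl2 and Grhl3) and 0 higher. RA-treated organoids at 18 h had Krt7 and Dsp higher and Grhl2 and Ovol1 lower than at day 2, against 14.5% and 5.71%. Ovol1 lost this call without day 2 replicate 1 (log2 fold change -0.98), and Krt8, at 0.99, gained it without day 2 replicate 2 or RA-treated replicate 1 or 3 (up to 1.06). The comparisons with day 2 share the 3 day 2 libraries, and those of 1 time point share its libraries with the RA comparison.

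At the later times the genes had been selected on the contrast itself. Without a test, 6 of the 10 were higher in each RA-treated library than in any untreated one and 2 lower at 42 h, beside 32.0% and 26.8% of all genes tested there. At 54 h these were again 6 and 2, beside 32.0% and 27.7%, at 66 h 7 and 2, beside 27.2% and 28.8%, and at 78 h 7 and 1, beside 27.9% and 27.4%. Between day 2 and untreated organoids at 78 h, 3 of the 10 were higher and 6 lower without overlap, beside 40.8% and 37.9%. Of the 10 genes, 4 lay on one side of the untreated libraries at one time and on the other side at another, each time without overlap, as did 23.7% of the 14860 genes tested at all 7 times.

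**Figure D3:**
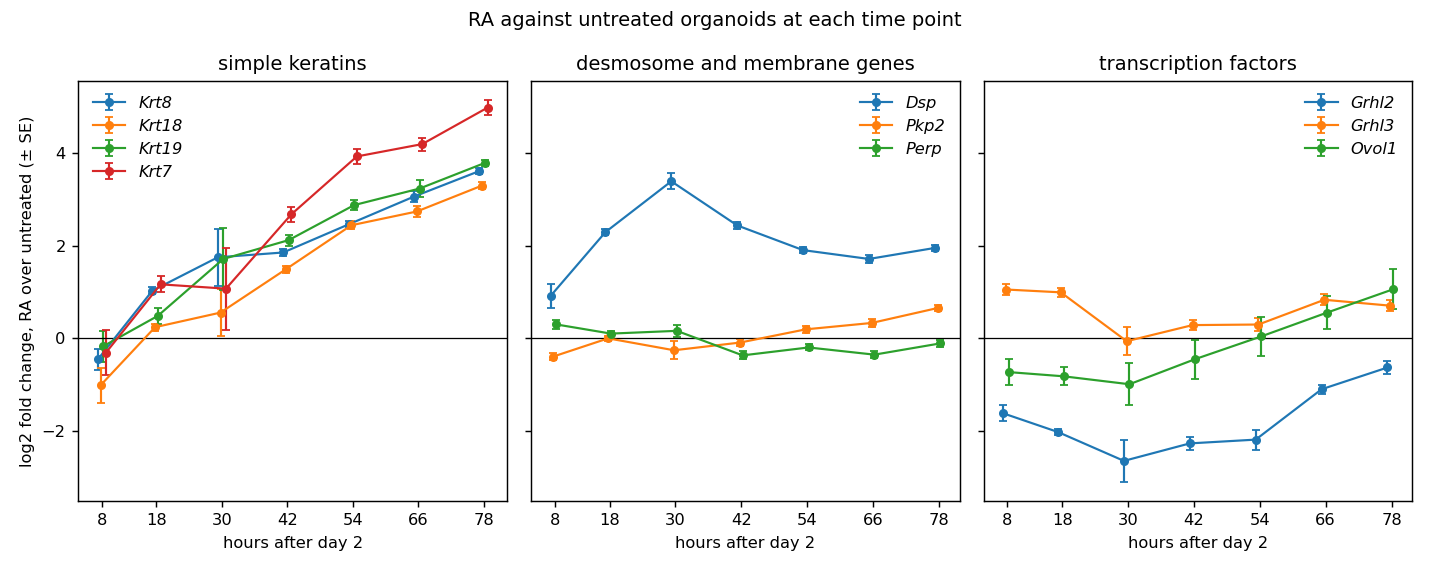
Log2 fold change of RA-treated over untreated organoids at each time point, with its standard error, for the keratins (left), the desmosome and membrane genes (middle) and the transcription factors (right), from 3 libraries per arm. The keratin values at 42 to 78 h, which chose the genes, increase up to 3.30 to 4.98, Dsp is highest at 30 h with 3.39, and Grhl2 is lowest there with -2.65.

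The other keratins were nearly absent. Of 50 further keratin genes, 6 passed the filter at 78 h and together the 50 summed to 7.28 to 8.67 CPM in untreated and 9.21 to 12.1 CPM in RA-treated libraries. At this time 7.66% of all genes tested were called higher and 4.03% lower. In the gene lists, rose and fell refer to RA-treated against untreated organoids at 78 h, not to a change from day 2. Krt42 rose with a log2 fold change of 1.07 (adjusted p = 0.00513). Krt20, another keratin of simple epithelia, had 1 to 5 counts per untreated library and 30 to 69 counts per RA-treated library, or 1.45 ± 0.498 CPM (SD, n = 3), and was also called, but it passed the filter on low counts only through the RA-treated libraries. The other 4 were not called, and 0 fell with edgeR or DESeq2 (1 at an unadjusted p under 0.05). The count of called keratins was 1 in place of 2 when the library left out was untreated replicate 2 or 3 or RA-treated replicate 1 or 2. The median log2 fold change of the 6 was -0.01, beside 0.00 over all 17059 genes.

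Among 15 other desmosome genes, 7 were tested at 78 h, 4 rose and 0 fell with edgeR and with DESeq2 (0 lower at an unadjusted p under 0.05), with a median log2 fold change of 1.24. The summed level of the list was 384 to 394 CPM at day 2, 202 to 227 CPM in untreated and 302 to 307 CPM in RA-treated libraries at 78 h. It was thus below day 2 in both arms, and less so with RA. Dsc2, which encodes desmocollin 2, an adhesion protein of simple epithelia, rose from 8.37 ± 0.687 to 36.9 ± 0.840 CPM (SD, n = 3 each, log2 fold change 2.15, adjusted p = 2.70e-09). Dsg2, its partner desmoglein 2, rose from 16.2 ± 2.51 to 37.8 ± 3.74 CPM, and the plaque proteins Ppl (periplakin) and Pkp3 rose by 1.72 and 1.28 on the log2 scale. Jup, the plakoglobin gene, had a log2 fold change of 0.98, under the limit, and Pkp4 and Evpl had -0.07 and -0.06. At 18 h Dsc2 and Ppl were at 40.3 and 86.1 CPM with RA and at 8.72 and 8.36 CPM without, so that, as for Dsp, their mean RA-treated levels at 78 h were below those at 18 h.

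Of 13 regulators of epithelial fate, 11 were tested at 78 h, 8 rose and 0 fell with edgeR and with DESeq2 (1 lower at an unadjusted p under 0.05), with a median log2 fold change of 1.27. Their summed level was 429 to 444 CPM at day 2, 111 to 129 CPM in untreated and 205 to 268 CPM in RA-treated libraries at 78 h. The sum was thus below day 2 in both arms, and less so with RA. The ones with the largest change were Gata3, from 1.67 ± 0.253 to 13.5 ± 1.85 CPM (SD, n = 3 each, log2 fold change 3.03, adjusted p = 5.28e-08), Tfap2a, with 2.64, and Tfap2c, from 15 ± 1.48 to 74.6 ± 3.93 CPM (log2 fold change 2.34, adjusted p = 3.22e-09), transcription factors of surface ectoderm and trophoblast. Trp63, the regulator of stratified epithelia, is among the 8 but had only 4 to 14 counts per untreated library and 0.962 ± 0.489 CPM with RA, and among the 10 regulators with at least 10 counts in every library 7 rose. Elf3, Esrp2 and Klf4 rose by 1.27, 1.33 and 1.15 on the log2 scale. Grhl1, Esrp1 and Klf5 were not called. Thus the regulators at the highest RA-treated levels, Tfap2c and Elf3, were among those that rose, whereas Grhl2 was lower.

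General genes of epithelial surface and junctions did not rise as a group. Of 15 tested at 78 h, 3 rose (Prss8, Cldn4 and Cdh3), 2 fell (Rab25 and Marveld3) and 10 were not called, with a median log2 fold change of -0.36. Prss8, a membrane protease, rose from 10.1 ± 1.18 to 43.6 ± 1.76 CPM (SD, n = 3 each, log2 fold change 2.13, adjusted p = 5.34e-09), and Cldn4, a tight junction claudin, from 18.6 ± 2.51 to 54.5 ± 6.57 CPM (log2 fold change 1.57). Cdh1 (E-cadherin) and Epcam, both high at day 2, had log2 fold changes of -0.56 and -0.73 (adjusted p = 0.000104 and 0.000595), under the fold limit. Among 6 genes of the epithelial to mesenchymal transition, 3 rose, with Vim (vimentin, the intermediate filament of neuroepithelial and mesenchymal cells) going from 273 ± 8.68 to 664 ± 77.6 CPM (log2 fold change 1.30, adjusted p = 1.69e-07), and Snai1 and Snai2 rising by 1.79 and 1.04 on the log2 scale. In that list 0 fell with edgeR or DESeq2 (1 at an unadjusted p under 0.05), and DESeq2 called 2 higher. Vim and the simple keratins were thus higher with RA in the same libraries. Without untreated replicate 1 or RA-treated replicate 2, the number of surface and junction genes that fell was 1.

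**Figure D4:**
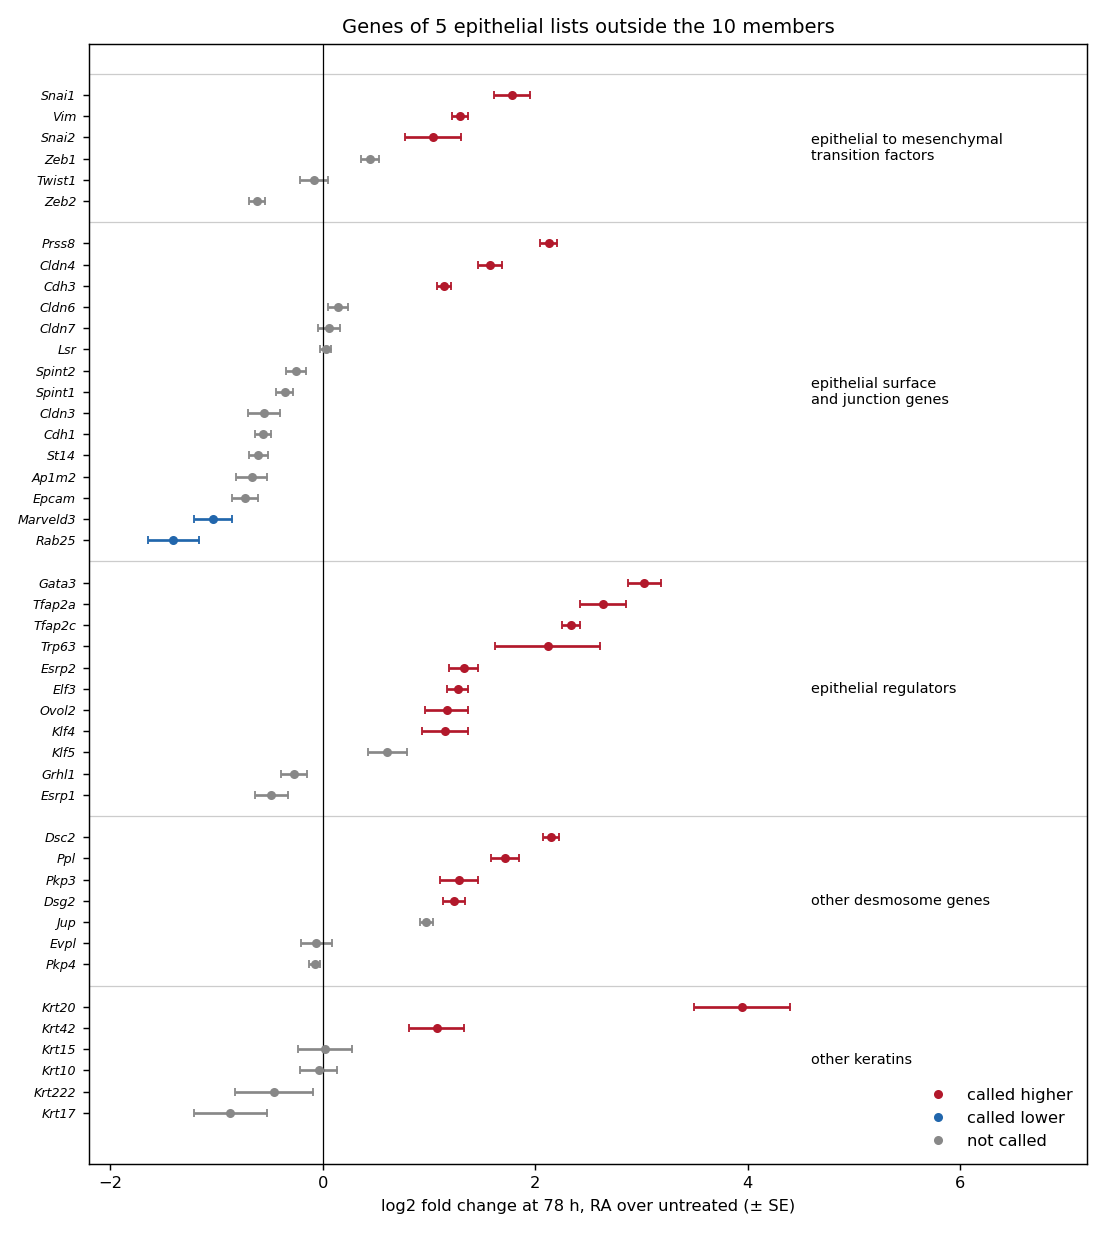
Log2 fold change at 78 h, RA-treated over untreated, with its standard error, for the tested genes of 5 epithelial lists outside the 10 genes (3 libraries per arm). Red points were called higher, blue lower and grey not called. In the regulators 8 of 11 and in the other desmosome genes 4 of 7 are red, while in the surface and junction genes 3 are red and 2 blue of 15.

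Markers of other cell types moved along with the keratins at 78 h, and their part in the keratin levels was not tested. Of 11 trophoblast markers, 10 were tested and 8 rose, with a summed level of 28.5 to 30.7 CPM in untreated and 191 to 199.5 CPM in RA-treated libraries. Hand1 rose from 0.522 ± 0.463 to 16.6 ± 1.44 CPM, Plac1 from 0.762 ± 0.161 to 17.4 ± 1.34 CPM and Gata2 from 2.29 ± 0.448 to 51.2 ± 7.69 CPM (SD, n = 3 each), with log2 fold changes of 5.09, 4.54 and 4.51, while Eomes was not called. Tpbpa had 1 to 11 counts per untreated and 16 to 22 counts per RA-treated library and was not called (adjusted p = 0.0213). With at least 10 counts in every library, 7 trophoblast markers could be tested and 6 rose. Of the 8 that rose, Elf5 and Hand1 dropped out there. Hand1 had 3 to 28 counts per untreated library, so its log2 fold change rests on few untreated counts. Of 9 surface ectoderm markers, 7 were tested and 6 rose, or 5 of 6 with at least 10 counts in every library, without Trp63. Their sums were 19.9 to 24.2 CPM in untreated and 124 to 132 CPM in RA-treated libraries. Dlx3 rose from 2.22 ± 0.332 to 26.1 ± 2.75 CPM. Both lists and the regulators above share Tfap2c and Gata3. The keratins of stratified epidermis, Krt5 and Krt14, did not pass the filter.

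By the ratio of summed levels, shifts were smaller in other lists, although single genes in them differed strongly. Of 12 markers of extraembryonic and definitive endoderm, 9 were tested and 4 rose, or 2 of 6 with at least 10 counts in every library, with sums of 21 to 26 and 45.5 to 46.4 CPM in untreated and RA-treated libraries. Of the 6 markers of notochord and floor plate 5 were tested, Foxa2, which both lists hold, rose and T fell, while Shh, with 3 to 4 counts per untreated and 217 to 254 counts per RA-treated library, passed the filter only through the RA-treated libraries, with sums of 125 to 150.2 and 185 to 279 CPM. Of 7 mesoderm markers 5 were tested and 2 rose, or 1 of 3 with at least 10 counts in every library (10.7 to 12.4 and 18.5 to 19.3 CPM), and of 5 neural crest markers 1 rose and 2 fell (43.9 to 49.3 and 22.9 to 33.2 CPM). Of the 8 neuroepithelium markers 1 rose, Pax3. Of 5 neuron markers 3 rose and 1 fell (263 to 278 and 292 to 310.5 CPM), and of 6 pluripotency markers 1 fell, Pou5f1, and 0 rose with edgeR or DESeq2 (2 at an unadjusted p under 0.05, 548 to 666 and 318 to 661 CPM). Higher markers of several lineages thus accompanied the keratins in the same libraries.

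The genes whose pattern over the 15 conditions was most like that of Krt8, among 12440 genes with a mean of at least 5 CPM in a condition, compared on log2(CPM + 1), were Hpse (r = 0.988), Mir99ahg (0.983), Gcnt4 (0.981), Chdh (0.978) and Rin3 (0.977). All 5 were at or under 1.40 CPM in untreated organoids at 78 h and between 5.25 and 11.5 CPM with RA. The limit of 5 CPM applied to a gene's highest condition. Genes at these levels could thus enter through the late RA-treated libraries alone, where Krt8 is also highest, so their likeness is not independent support. The mean of the 10 standardised profiles was most like Prss8 (r = 0.984), followed by AI661453 (0.956), Tfeb (0.946), Pip4k2c (0.936) and F3 (0.932). These correlations are descriptions over 15 condition means. Within the 10 genes, Krt8 had an r of 0.62 with Dsp, 0.11 with Pkp2, -0.46 with Perp, -0.76 with Grhl2, -0.33 with Grhl3 and -0.53 with Ovol1, so that the members outside the keratins did not follow the keratin pattern.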

How the data were processed

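RNA was isolated by poly(A) selection and made into libraries with a directional kit, per the labels. The authors trimmed the reads (Trim Galore 0.5.0), removed abundant sequences (Bowtie2 2.3.4.1, per the submitters' processing notes), aligned to GRCm38, counted reads per gene (featureCounts, Subread 1.6.2) and deposited raw counts of 54532 genes, without normalization or pooling. The strand setting and the treatment of multiply mapped reads are not given in the sources used here. Symbols came from a gene name table (54409 of 54532 matched), and positions from GENCODE M21, another release than the authors counted on.

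Each of the 10 comparisons was fitted on its own 6 libraries with edgeR 4.0.16 in R 4.3.3 (TMM, filterByExpr with a minimum count of 10 and total of 15, glmQLFit, glmQLFTest), with Benjamini-Hochberg adjustment over all genes tested. A standard error is the log2 fold change divided by the square root of F, and 95% intervals are 1.96 standard errors. A call required an adjusted p below 0.01 with a log2 fold change beyond 1. All 45 pairs of replicates showed differences above sampling noise (mean chi-square per gene at least 1.97). Replicates are biological per the labels, and p-values measure the spread between them. Correlations between the deviations of samples with the same replicate number from their group means were computed over 11160 genes. In the RA comparisons they were positive in every pair at 30 h (r from 0.12 to 0.26), 54 h (0.04 to 0.12), 66 h (0.30 to 0.62) and 78 h (0.06 to 0.45). In each of the other comparisons at least 1 pair was negative. The numbers come from the titles.

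The 10 genes and all gene lists were chosen with earlier results of these data known. Beside the 10 genes, the text names up to 5 genes called at 78 h in each direction of each epithelial list by size of change, list genes with a mean of at least 10 CPM in a condition, and the 5 genes with the highest r with Krt8 and with the mean profile. Krt79, Krt5, Krt14, Shh, Eomes, Tpbpa and Elf5 were named after their values were seen. A few list genes were left out and are not reported here. Promoters were matched by symbol to a RefSeq table of GRCm38.p6, for 5 of the 10 genes. Fits were checked on counts simulated for the 78 h comparison alone, with the same dispersion for all genes. The 200 changed genes, with a median log2 fold change of 2.02 in size, were all recovered. That check does not cover the fits at 8, 18 and 30 h or changes near the fold limit. Each result was recomputed with DESeq2 1.42.0, with 1 fit of the 45 libraries, with RLE size factors in place of TMM, with library totals, without a filter, with a minimum of 10 counts in all libraries compared, with a prior count of 2, at an adjusted p under 0.05 without a fold limit, with the replicate number as a block, and leaving out 1 library at a time. Floors in CPM cover counting error only.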

Additional observations from a re-analysis of the deposited data

Results flagged for a closer look

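For 4 genes every RA-treated library lay on one side of the untreated libraries at one time and on the other side at another, as did 23.7% of all genes tested at the 7 times, and the difference between these time points was not tested. Krt8 and Krt18 were lower in RA-treated organoids at 8 h, by -0.45 and -1.01 on the log2 scale, and higher at 78 h, by 3.62 and 3.30, so that the log2 fold changes differed by 4.07 and 4.31. Neither value at 8 h passed the test (adjusted p = 0.238 and 0.128). Pkp2 was lower at 8 h and higher at 78 h, with log2 fold changes of -0.39 and 0.65 that differed by 1.05. Perp was higher at 8 h and lower at 42 h, with log2 fold changes of 0.30 and -0.37 that differed by 0.67. The genes were chosen on the later of these contrasts, which are therefore a description. No criterion for a single extreme sample was applied to groups of 3 libraries.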

How the results depend on the processing

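With an adjusted p under 0.05 and no fold limit, the members called lower were 2 at 8 h, 2 at 18 h and 2 in untreated organoids at 18 h, those called higher at 18 h were 6, and those at 18 h with RA against day 2 5 higher. Under the same rule 1 of the regulators, 9 of the surface and junction genes and 1 of the transition genes were lower. The fit of all 45 libraries gave 3 members higher at 30 h, 1 higher at 18 h with RA against day 2 and 1 other keratin higher, no filter gave 2 higher at 30 h, library totals gave 1 lower at 18 h with RA against day 2, and at least 10 counts in every library gave 1 other keratin. Library totals and that filter each also called Grhl3 higher at 18 h and Krt8 higher at 18 h with RA against day 2, each at 0.99 on the log2 scale with the settings of the report. The cause of these shifts was not tested, beyond fewer genes being tested under the last filter. With 1 library left out in turn, 0 to 1 member was higher and 0 to 1 lower at 8 h, 2 to 4 were higher at 18 h, 0 to 2 lower at 30 h, 2 to 3 higher and 1 to 2 lower at 18 h with RA against day 2, 1 to 2 other keratins were higher and 1 to 2 surface and junction genes lower. With the replicate number as a block, the paired fits gave 1 member higher and 1 lower at 30 h, as without it. The block moved the log2 fold changes of members at 30 h by up to 0.928, with Krt7 going from 1.07 to 0.15 and Krt8 from 1.75 to 1.29. The largest move of a member was 0.181 at 8 h and 0.0103 at 66 h. No call of a member at 8, 18 or 30 h changed under the replicate block.

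Signs changed for small effects. Pkp2 at 18 h was -0.0190 with RLE size factors, -0.0286 with DESeq2, -0.0084 when all 45 were fitted together and -0.0109 unfiltered, and Grhl3 at 30 h was 0.0825 with library totals. With library totals, untreated organoids at 18 h against day 2 had 0.0463 for Krt8, 0.0344 for Krt18, 0.0205 for Krt19, 0.0490 for Dsp and 0.0232 for Perp, and Pkp2 with RA at 18 h had 0.103. With 1 library left out, the log2 fold changes ranged at 8 h from -0.45 to 0.12 for Krt19 and from -0.71 to 0.10 for Krt7, at 18 h from -0.0170 to 0.0095 for Pkp2, at 30 h from -0.41 to 0.89 for Krt18, from -0.99 to 1.56 for Krt7 and from -0.53 to 0.14 for Grhl3, in untreated organoids at 18 h against day 2 from -0.0662 to 0.0564 for Krt8, from -0.0727 to 0.0039 for Krt18, from -0.183 to 0.0292 for Krt19 and from -0.0680 to 0.0448 for Dsp. Without untreated replicate 3 at 54 h, the library with a later number there, Krt8 had 2.45 and Krt7 4.09. Day 2 replicate 3 and all libraries of both arms at 66 h and 78 h also carry later numbers in the titles. Changes from earlier times to 66 h or 78 h thus coincide with a change of library numbers, whose part was not tested. Depth limits Ovol1 most, with as few as 6 counts.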
